A study of Mus musculus with 56 samples.

Results

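The genes described here encode the translation initiation factors of the mouse, the proteins that bring an mRNA, the initiator tRNA and the small ribosomal subunit together. They were chosen as the protein-coding genes of the count table whose symbol begins with Eif1 to Eif6, leaving out those on the X and Y chromosomes. The rule gave 52 of 57010 genes, and 11 pseudogenes or non-coding genes and 3 protein-coding genes on X or Y with such a symbol were left out. By role the 52 comprise 14 genes of eIF3, 6 of scanning and subunit joining, 5 of eIF2B, 5 of the eIF4A helicases and their cofactors, 4 of cap binding, 4 of eIF4E-binding proteins, 4 of eIF2 and tRNA delivery, 4 of eIF2α kinases, 3 of eIF4G and 3 of eIF5A and eIF6.

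In cap-dependent initiation, eIF4E binds the cap of the mRNA, eIF4G bridges it to the helicase eIF4A and to eIF3, and eIF3 recruits the small subunit that carries eIF2 with the initiator tRNA. The eIF4E-binding proteins compete with eIF4G for eIF4E until mTORC1 phosphorylates them, and eIF2B recharges eIF2 with GTP until an eIF2α kinase blocks it. In skeletal muscle these control points are known to respond to feeding, insulin and contraction.

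All libraries came from gastrocnemius muscle of mice aged 20 to 22 weeks. In the tested mice Elavl1, the gene of the RNA-binding protein HuR, was floxed and met Cre recombinase driven by the Mlc1f promoter of muscle fibres. Their controls are labelled only as controls. Knockouts and controls alike expressed ribosomal protein L10A tagged with GFP, switched on by the same Cre, so that ribosomal RNA came from tagged ribosomes and total RNA from the whole muscle. The 56 libraries were 7 each of female knockout ribosomal, female control ribosomal, male knockout ribosomal, male control ribosomal, female knockout total, female control total, male knockout total and male control total RNA, and within a sex and genotype a ribosomal and a total library of the same number were taken as 1 mouse. Elavl1 itself was not called lower in the labelled knockouts in any comparison (adjusted p from 0.206 to 0.969 in edgeR's test). Its median was 104.5 CPM in female knockout and 87.6 CPM in female control ribosomal RNA, and 83.7 CPM in male knockout and 86.0 CPM in male control total RNA. Its counts come from 3′ tags, and tags from an undeleted stretch would check nothing, so the mice are called labelled knockouts below. Levels are given as CPM, counts scaled to a library of 1 M, and since a 3′ tag is counted once per transcript they are not divided by length.

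Ribosomal libraries held 0.16 to 3.58 M counts (median 1.62 M) and total libraries 2.43 to 5.85 M (median 3.56 M). The 52 genes took 0.517 to 0.857% of the counts in ribosomal and 0.627 to 0.743% in total libraries. In ribosomal RNA this share was 0.528 to 0.703% in female labelled knockouts and 0.610 to 0.833% in female controls. Ribosomal libraries under 0.75 M counts were male labelled knockout 2, male control 20, female labelled knockouts 2, 6 and 12 and female controls 18 and 19, and 9.31 to 12.5% of their reads lay outside genes. Total libraries in which more than 19% of reads lay outside genes were female labelled knockout 9, female control 14 and male controls 25, 26 and 27, and where these male controls are left out together below, the 2 female libraries left the fit as well. The kidney transcript Kap stood at 178.5 CPM in ribosomal library 1 and 586.3 CPM in total library 6 of male labelled knockouts, against at most 55.1 CPM in each of the other 54. The muscle fibre markers, among them Acta1, Ckm and Myh4, were abundant in every group, with a summed level of at least 32540 CPM. No label says whether mice shared a litter or a day.

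HuR binds U-rich and AU-rich stretches in the 3′ untranslated regions (3′ UTR) of mRNAs, so the members were searched for TTTATTT, a sequence of that kind, on the strand of the transcript. In the 3′ UTR of 1 annotated transcript a gene (GENCODE M21), 16 of the 52 held TTTATTT (30.8%), against 36.5% of 19652 genes, with a median 3′ UTR length of 687 bases in the members and 875 in all genes. Over the last 300 bases it was held by 4 of 38 members with so long a 3′ UTR (10.5%), against 16.02% of 15028 genes. In these 300 bases the pentamer ATTTA was held by 47.4% of these members and 45.1% of the genes, and the nonamer TTATTTATT, which includes ATTTA, by 0 members and 2.3% of the genes. Over the whole 3′ UTR the nonamer was held by 2 of the 52 members (3.8%), Eif2b3 and Eif4ebp1, and by 7.3% of genes. The window of Eif4ebp1 below contains it. The windows below show 1 match each in the 5 members that were called lower in labelled knockouts in 2 or 3 comparisons and hold the heptamer, with the heptamer in capitals, in GRCm38. Only that of Eif4g1 lies in the last 300 bases, and the others lie 516 (Eif4ebp1), 542 (Eif4g3), 1606 (Eif3j1) and 1286 (Eif4b) bases from the transcript's end.
Eif4ebp1, chr8:27276141-27276169, plus strand: cgctccgaaaaTTTATTTattattatatg
Eif4g3, chr4:138206520-138206548, plus strand: ttgaactttaaTTTATTTtaaggactgca
Eif4g1, chr16:20692730-20692758, plus strand: tagggtcctttTTTATTTtctgaaatcac
Eif3j1, chr2:122054975-122055003, plus strand: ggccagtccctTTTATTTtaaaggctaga
Eif4b, chr15:102095870-102095898, plus strand: gggggaattgtTTTATTTttttacccccc
The 3′ UTRs of Eif1, Eif2ak1, Eif2b1, Eif2b2, Eif2b5, Eif3a, Eif3h and Eif4a2, which were called lower as well, hold no TTTATTT. That of Eif4ebp2, called lower in 1 comparison, does, and so do those of members not called, Eif4e and Eif2s1 among them. A match is a description of these letters and not a measured binding site.

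Promoter sequences of RefSeq (GRCm38.p6), from 250 bases before to 50 bases after an annotated start, were found for 40 of the 52 members. The E-box CACGTG, a palindrome that Myc and related factors bind, lay in 10 of these 40 members and in 8.11% of 25748 genes, and the ETS motif CCGGAAGT, searched on both strands, in 8 of 40 members and 4.38% of genes. None of the 40 held TGACGTCA, TGTTTAC or TGATGCAA on either strand, which lie in 2.08, 4.12 and 0.95% of genes. The windows of Eif4g1 and Eif4g3, the scaffold genes that were called lower in labelled knockouts, are shown beside that of Eif4e, whose product they bind and which was not called, with E-boxes in capitals. For Eif4e and Eif4g3, with 2 annotated starts each, the one with the most E-boxes was taken.
Eif4g1, chr16:20672477-20672776, plus strand: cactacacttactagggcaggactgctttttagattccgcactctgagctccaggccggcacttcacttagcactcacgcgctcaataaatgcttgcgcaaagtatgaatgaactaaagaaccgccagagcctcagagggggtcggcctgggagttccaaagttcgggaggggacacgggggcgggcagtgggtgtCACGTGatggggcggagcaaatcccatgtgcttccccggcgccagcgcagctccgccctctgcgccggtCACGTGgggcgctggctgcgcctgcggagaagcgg
Eif4g3, chr4:137993205-137993504, plus strand: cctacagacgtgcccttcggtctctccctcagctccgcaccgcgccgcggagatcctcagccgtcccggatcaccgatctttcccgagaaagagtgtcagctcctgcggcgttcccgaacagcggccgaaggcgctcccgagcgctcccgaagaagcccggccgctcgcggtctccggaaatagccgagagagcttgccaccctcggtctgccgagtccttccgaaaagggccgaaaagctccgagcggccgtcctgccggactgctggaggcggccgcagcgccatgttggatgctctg
Eif4e, chr3:138527018-138527317, plus strand: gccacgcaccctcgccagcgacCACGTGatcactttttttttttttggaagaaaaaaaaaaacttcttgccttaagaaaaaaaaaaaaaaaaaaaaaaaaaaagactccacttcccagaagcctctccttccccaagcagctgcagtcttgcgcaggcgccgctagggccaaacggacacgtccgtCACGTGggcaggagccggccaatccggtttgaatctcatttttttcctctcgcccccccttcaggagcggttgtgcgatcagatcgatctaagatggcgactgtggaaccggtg
Eif4g1 and Eif4e hold 2 E-boxes each and Eif4g3 none.

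Labelled knockouts were compared with controls of the same sex and RNA type, the comparison the study was designed around, to see which initiation factor mRNAs differ between them. A gene was called at an adjusted p under 0.05 in edgeR's quasi-likelihood test over all genes tested. Every member called in these 4 comparisons was lower in labelled knockouts. In ribosomal RNA 8 of 47 tested members were lower in females, where 8.41% of all genes were called lower and 8.44% higher (16.8% in all), and 4 of 47 in males, where 4.87% were lower and 4.09% higher (8.96% in all). In total RNA 7 of 49 were lower in females, where 4.7% of all genes were lower and 3.79% higher (8.49% in all), and 4 of 49 in males, where 7.36% were lower and 6.83% higher (14.2% in all). The male total share of 8.16% lies near the 7.36% of all genes. The median log2 fold change of the tested members was −0.13 in female and −0.15 in male ribosomal RNA and −0.05 in female and −0.07 in male total RNA, while the median of all genes lay between −0.02 and 0.02. No library enters 2 of these comparisons, but the ribosomal and total libraries of a sex come from the same mice.

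In all, 14 members were lower in 1 comparison or more. Eif4ebp1 and Eif4g3 were lower in 3 of the 4, Eif2b2, Eif2b5, Eif3j1, Eif4b and Eif4g1 in 2, and Eif1, Eif2ak1, Eif2b1, Eif3a, Eif3h, Eif4a2 and Eif4ebp2 in 1, and no member was lower in all 4. Eif2ak2, Eif2ak4, Eif4e1b, Eif4ebp3 and Eif5a2 were too low to be tested in ribosomal RNA, and Eif3j2, Eif4e1b and Eif4ebp3 in total RNA. In bulk samples such as these, fewer cells of a type and less RNA per cell cannot be told apart.

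**Figure D1:**
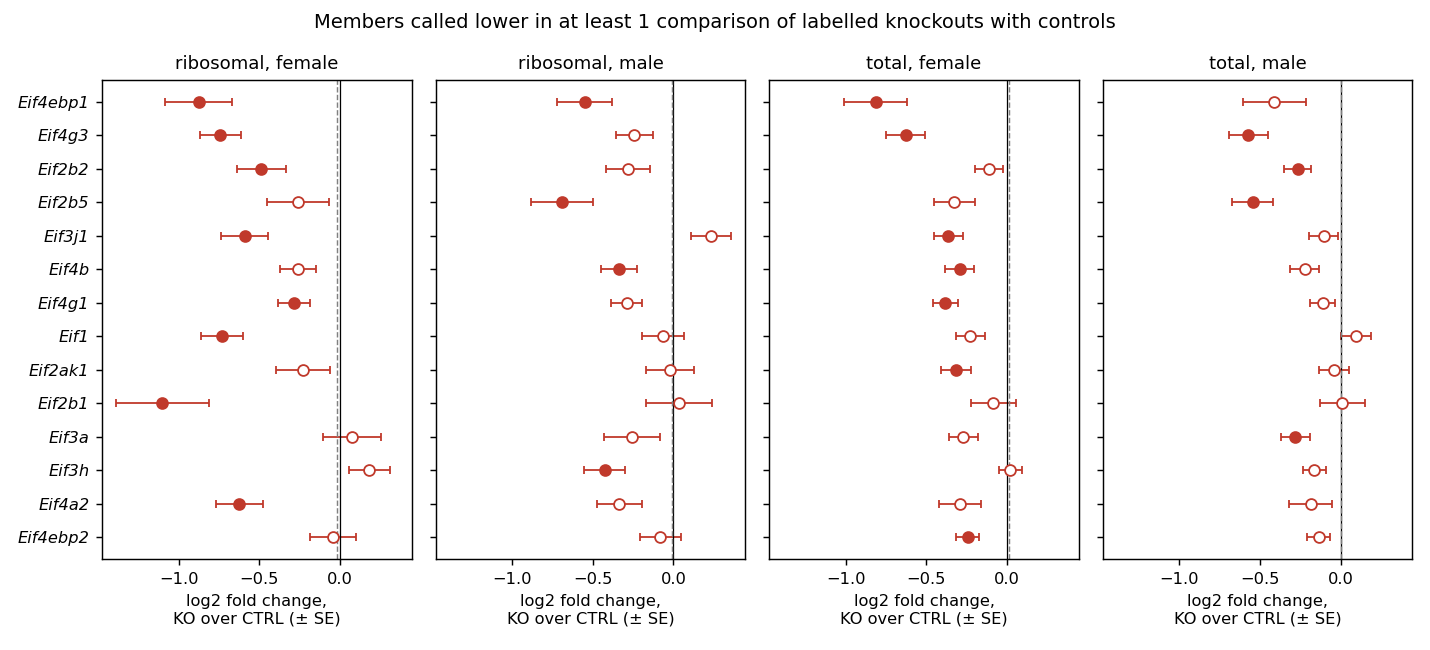
Log2 fold change of labelled knockouts (KO) over controls (CTRL), with its standard error, for the 14 members called lower in at least 1 of the 4 comparisons. Filled points passed an adjusted p under 0.05, open points did not, and the dashed line marks the median of all genes, which lies close to 0 in each panel. Eif4ebp1 and Eif4g3 lie left of 0 in all 4 panels, and Eif2b1 has the lowest point, −1.10 in female ribosomal RNA.

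Eif4ebp1 (ENSMUSG00000031490) encodes 4E-BP1, the repressor of eIF4E that mTORC1 phosphorylates. Its lowest, median and highest levels in female ribosomal RNA were 14.1, 20.96 and 29.3 CPM in labelled knockouts and 29.4, 38.6 and 63.9 CPM in controls. The groups did not overlap, although the highest labelled knockout and the lowest control nearly touched, and the log2 fold change was −0.88 (SE 0.21, adjusted p = 0.00314). Female total RNA gave 25.95, 34.8 and 45.1 CPM in labelled knockouts and 39.8, 50.0 and 122.7 CPM in controls. There 6 of 7 labelled knockouts lay below every control, with a log2 fold change of −0.81 (SE 0.20, adjusted p = 0.00862).

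In male ribosomal RNA Eif4ebp1 stood at 17.1, 23.8 and 32.1 CPM in labelled knockouts and 20.3, 36.6 and 49.8 CPM in controls. Only 1 of 7 labelled knockouts lay below every control, and the log2 fold change was −0.55 (SE 0.17, adjusted p = 0.0356). That call was lost when any of 7 single libraries was left out, with values down to −0.45 (adjusted p = 0.11) without male control 26. It was lost too without labelled knockouts 6 (adjusted p = 0.0698), 10 (0.0573), 12 (0.0738) and 14 (0.0807) and controls 25 (0.0698) and 27 (0.0843). In male total RNA the gene did not pass the test (log2 fold change −0.41, SE 0.20, adjusted p = 0.151), with 32.1 to 45.3 CPM in labelled knockouts and 34.5 to 74.0 CPM in controls. Without the male controls 25, 26 and 27, whose total libraries had the largest shares outside genes in males, it did (−0.70, adjusted p = 0.0378). The median counts behind these levels were 14 in female labelled knockout and 62 in female control ribosomal libraries, so that counting error is large there.

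Of the other eIF4E-binding proteins, Eif4ebp2 was lower in female total RNA alone, with 113.3, 125.6 and 138.8 CPM in labelled knockouts and 130.8, 149.4 and 174.1 CPM in controls. Its log2 fold change of −0.25 (SE 0.07, adjusted p = 0.0245) was no longer called without control 14 (−0.20, adjusted p = 0.0758), control 16 (−0.21, adjusted p = 0.0641) or labelled knockout 1 (−0.22, adjusted p = 0.0566). Eif4enif1, the carrier that takes eIF4E into the nucleus, lay between −0.17 and 0.13 in the 4 comparisons and passed in none. Eif4ebp3 had 1 count in 149.2 M over the 56 libraries.

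Eif4g3 (ENSMUSG00000028760) encodes the scaffold eIF4G3, also called eIF4GII. It had 59.7, 69.2 and 78.1 CPM in labelled knockouts and 97.0, 113.3 and 138.1 CPM in controls in female ribosomal RNA, and in female total RNA 97.0, 137.3 and 176.6 CPM in labelled knockouts and 178.4, 215.8 and 301.8 CPM in controls. Male total RNA gave 92.5, 136.3 and 141.8 CPM in labelled knockouts and 154.4, 198.6 and 223.3 CPM in controls. In these 3 comparisons each labelled knockout lay below each control, and the log2 fold changes were −0.74 (SE 0.13, adjusted p = 8.16e-05), −0.63 (SE 0.12, adjusted p = 0.0011) and −0.57 (SE 0.12, adjusted p = 0.00319).

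All 3 calls of Eif4g3 were kept when each library was left out in turn. Male ribosomal RNA was different in that the groups overlapped, at 81.9 to 112.7 CPM in labelled knockouts and 81.9 to 135.1 CPM in controls. There the log2 fold change of −0.24 (SE 0.12, adjusted p = 0.194) did not pass. The difference between the female and male changes in ribosomal RNA did not pass either.

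Eif4g1 (ENSMUSG00000045983), the main eIF4G scaffold, stood at 318.6, 331.3 and 416.6 CPM in labelled knockouts and 415.6, 444.2 and 580.4 CPM in controls in female total RNA. Of the labelled knockouts 6 of 7 lay below every control there (log2 fold change −0.38, SE 0.08, adjusted p = 0.00164). Female ribosomal RNA held 281.7 to 358.8 CPM in labelled knockouts and 320.9 to 511.3 CPM in controls (−0.29, SE 0.10, adjusted p = 0.0422), a call that was lost on leaving out any of 9 single libraries. Without control 18, the highest, it was −0.22 (adjusted p = 0.0999), and without labelled knockout 12 it was −0.26 (adjusted p = 0.0842). The other 7 were labelled knockouts 1, 2, 6 and 9 and controls 14, 15 and 17, with adjusted p from 0.0511 to 0.074. In male ribosomal RNA it had 349.3, 371.4 and 393.9 CPM in labelled knockouts and 398.4, 465.1 and 488.0 CPM in controls. These groups did not overlap, but the log2 fold change of −0.29 (SE 0.10) did not pass (adjusted p = 0.0533), though without the ribosomal libraries under 0.75 M counts it did (−0.33, adjusted p = 0.0108). Without those libraries the female change was −0.19 (adjusted p = 0.219). The female call was lost as well with RLE factors (adjusted p = 0.0537), with upper-quartile factors (0.0695), without the count filter (0.102) and in a fit of its 14 libraries alone (0.14). Eif4g2, which encodes a shorter relative of eIF4G that lacks the eIF4E-binding part, was called in none, with log2 fold changes from −0.27 to 0.21.

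**Figure D2:**
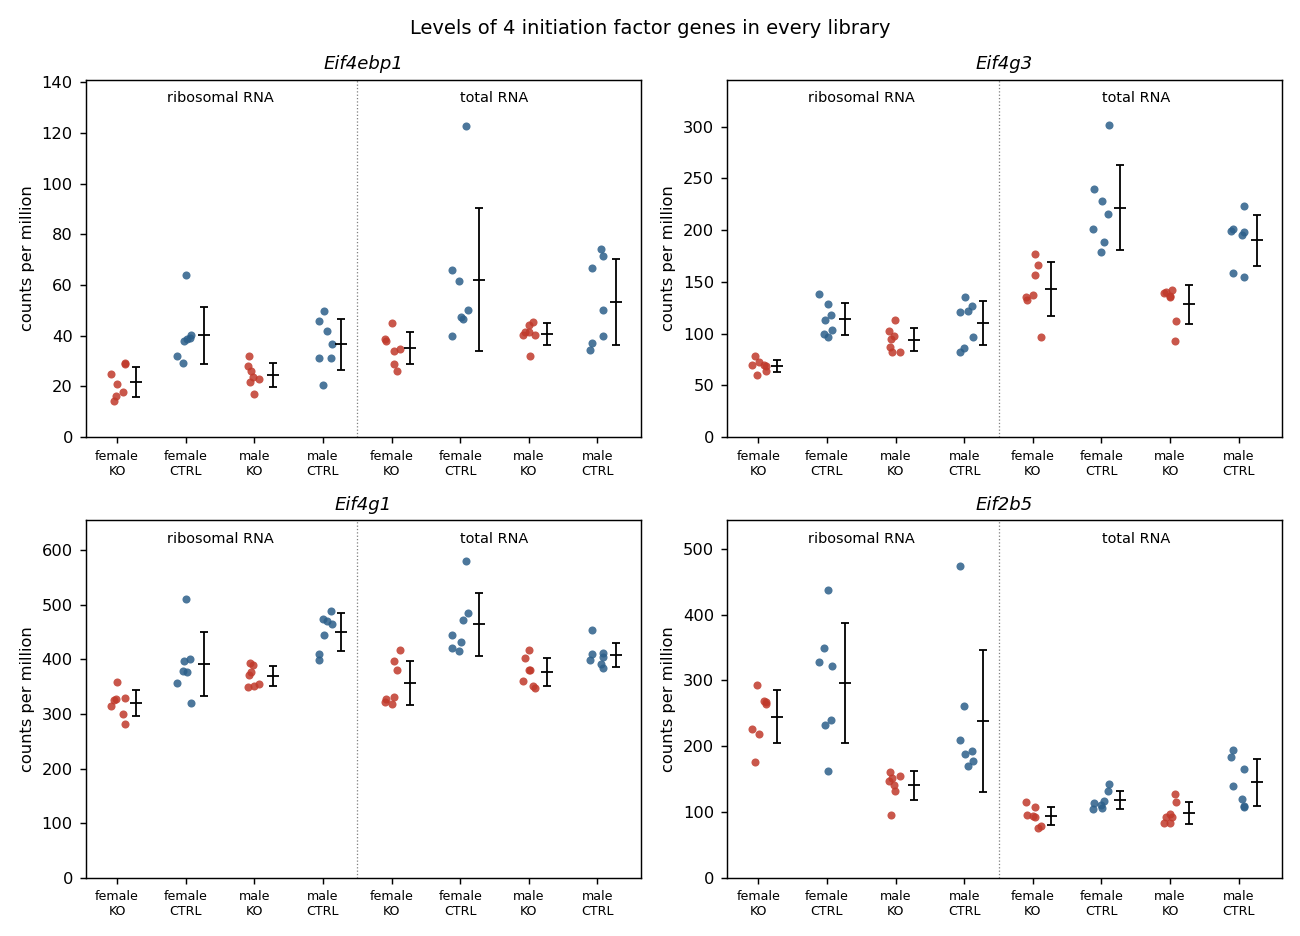
CPM of Eif4ebp1, Eif4g3, Eif4g1 and Eif2b5 in each of the 56 libraries, 7 a group, with labelled knockouts (KO, red) left of controls (CTRL, blue) and mean ± SD as black bars. In female ribosomal RNA the highest labelled knockout lies at 78.1 CPM for Eif4g3, below the lowest control at 97.0 CPM, and 1 male control stands at 473.7 CPM for Eif2b5.

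The helicase gene Eif4a2, the eIF4A paralog with the higher count here, was lower in female ribosomal RNA. Labelled knockouts had 75.4, 90.0 and 103.1 CPM and controls 110.0, 133.8 and 165.2 CPM, with no overlap and a log2 fold change of −0.62 (SE 0.15, adjusted p = 0.00306). The other 3 comparisons gave −0.34, −0.29 and −0.19, none of which passed. Eif4a1 had a median of 7.55 CPM in female labelled knockout and 8.46 CPM in female control ribosomal RNA, and its log2 fold changes of −0.08 to −0.28 did not pass. Eif4a1 has processed pseudogenes of near-identical sequence, and the table sets reads that align to several places apart from the genes, so its level is uncertain.

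Eif4b encodes the cofactor that stimulates eIF4A. It had 94.8, 140.5 and 154.2 CPM in labelled knockouts and 150.3, 177.4 and 204.7 CPM in controls in male ribosomal RNA, where 5 of 7 labelled knockouts lay below every control (log2 fold change −0.34, SE 0.11, adjusted p = 0.0453). In female total RNA it had 87.5, 95.4 and 121.3 CPM in labelled knockouts and 107.2, 123.5 and 139.1 CPM in controls (−0.29, SE 0.09, adjusted p = 0.038). Both calls sit close to the threshold. Both were lost without the count filter (adjusted p = 0.175 in males and 0.087 in females) and with upper-quartile factors (0.0654 and 0.053), and the male call without the shallow libraries (−0.27, adjusted p = 0.0785). Of the 14 libraries of each comparison, leaving out 1 lost the male call for 10 and the female call for 9, with changes no smaller than −0.30 in males and −0.25 in females. The male losses came without labelled knockouts 2, 10, 12, 13 and 14 and controls 20, 21, 23, 26 and 27 (adjusted p up to 0.0947), and the female losses without labelled knockouts 5, 6, 9 and 12 and controls 14, 17, 18, 19 and 21 (adjusted p up to 0.102). The change was −0.26 (adjusted p = 0.106) in female ribosomal and −0.22 (adjusted p = 0.0938) in male total RNA.

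The cap-binding genes did not pass in any comparison of the reported fits. Eif4e, whose product binds the cap, gave log2 fold changes of 0.01 (SE 0.12), −0.26 (SE 0.12), 0.18 (SE 0.09) and −0.07 (SE 0.09) in female ribosomal, male ribosomal, female total and male total RNA. Its medians in female ribosomal RNA were 208.5 CPM in labelled knockouts and 209.2 CPM in controls. Eif4e2 and Eif4e3 lay between −0.32 and −0.01. Eif4e1b, known from oocytes, had at most 1 count in a library.

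Among the 5 genes of eIF2B, the exchange factor of eIF2, Eif2b5 (ENSMUSG00000003235), which encodes the catalytic ε subunit, was lower in both male comparisons. In male ribosomal RNA it had 94.8, 147.0 and 161.3 CPM in labelled knockouts and 170.1, 192.0 and 473.7 CPM in controls, so that each labelled knockout lay below each control (log2 fold change −0.69, SE 0.19, adjusted p = 0.017). Control 20, with 0.705 M counts, is the one at 473.7 CPM, and without it the change was −0.46 (adjusted p = 0.0541). In male total RNA it had 82.7, 92.7 and 127.3 CPM in labelled knockouts and 107.6, 139.7 and 193.7 CPM in controls (−0.54, SE 0.13, adjusted p = 0.00592). Without male controls 25, 26 and 27, which had over 19% of reads outside genes, it was −0.27 (adjusted p = 0.178). In females Eif2b5 gave −0.26 (adjusted p = 0.38) in ribosomal and −0.33 (adjusted p = 0.111) in total RNA.

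Eif2b1, which encodes the α subunit of eIF2B, had the largest fall among the members called, in female ribosomal RNA. Labelled knockouts had 5.5, 11.3 and 15.5 CPM and controls 9.47, 20.6 and 41.5 CPM, and 2 of 7 labelled knockouts lay below every control (log2 fold change −1.10, SE 0.29, adjusted p = 0.00686). The median count was 8 in labelled knockout and 36 in control libraries. In the other 3 comparisons Eif2b1 lay between −0.09 and 0.04. Eif2b2, the β subunit gene, was lower in female ribosomal RNA (−0.49, SE 0.15, adjusted p = 0.0233), with 68.5 to 106.3 CPM in labelled knockouts and 88.1 to 154.1 CPM in controls. That call was lost without female control 15 (−0.38, adjusted p = 0.0966) or labelled knockout 1 (−0.45, adjusted p = 0.0507). It was lower too in male total RNA (−0.27, SE 0.08, adjusted p = 0.0317), with 120.6 to 162.0 CPM in labelled knockouts and 136.3 to 192.8 CPM in controls. There leaving out any of 7 libraries lost the call, namely labelled knockouts 6, 10, 12 and 14 and controls 25, 26 and 27, with changes no smaller than −0.22 (adjusted p = 0.0841). Eif2b3 and Eif2b4 were called in no comparison of the reported fits.

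The genes of eIF2 and tRNA delivery (Eif2s1, Eif2s2, Eif2a and Eif2d) were called in none of the 4 comparisons, with log2 fold changes from −0.37 to 0.35. Eif2s1, which encodes the α subunit that the kinases phosphorylate, had medians of 23.9 CPM in female labelled knockout and 33.7 CPM in female control ribosomal RNA (−0.23, SE 0.20, adjusted p = 0.469). Of the kinases, Eif2ak1, the haem-regulated one, was lower in female total RNA, at 47.4, 57.6 and 65.7 CPM in labelled knockouts and 63.7, 69.2 and 86.9 CPM in controls (−0.32, SE 0.09, adjusted p = 0.0317). It lost the call without labelled knockouts 6, 10 and 12 or controls 14 and 21, with changes no smaller than −0.26 (adjusted p = 0.0901). Eif2ak3, which encodes PERK, had the highest fold among the kinases in female ribosomal RNA, 0.84 (SE 0.37), and did not pass (adjusted p = 0.114). Its median count there was 4 in labelled knockouts and 5 in controls, with 2 controls at 0, so the fold rests on very few counts. Eif2ak2 and Eif2ak4, which encode PKR and GCN2, gave −0.20 to 0.17 in total RNA and did not pass.

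Of the 14 eIF3 genes, Eif3j1 (ENSMUSG00000027236) was lower in both female comparisons. The gene encodes eIF3j, a loosely bound subunit that helps to place mRNA in the small subunit. It had 32.7, 39.0 and 49.5 CPM in labelled knockouts and 37.9, 63.7 and 73.4 CPM in controls in female ribosomal RNA (log2 fold change −0.59, SE 0.15, adjusted p = 0.00514). In female total RNA it had 65.9, 74.2 and 87.7 CPM in labelled knockouts and 81.8, 95.3 and 117.8 CPM in controls (−0.36, SE 0.09, adjusted p = 0.00966). The groups overlapped, with 3 of 7 labelled knockouts below every control in ribosomal and 6 of 7 in total RNA, and both calls were kept with each library left out in turn. Eif3j2 is a near-identical copy, so that reads could be split or lost between them. In female ribosomal RNA Eif3j2 gave 1.29 (SE 0.47, adjusted p = 0.0524) from a median of 12 counts in labelled knockouts and 11 in controls. It was called higher there without the count filter (1.18, adjusted p = 0.00278) and with upper-quartile factors (1.3, adjusted p = 0.0461).

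Eif3h was lower in male ribosomal RNA, at 175.1, 291.8 and 343.7 CPM in labelled knockouts and 340.9, 361.6 and 504.9 CPM in controls, with 6 of 7 labelled knockouts below every control (−0.43, SE 0.13, adjusted p = 0.0263). Leaving out labelled knockout 12 or 14 or control 20 or 27 lost that call, with changes no smaller than −0.36 (adjusted p = 0.0601). The lowest labelled knockout, 2, and the highest control, 20, are shallow libraries. Without the ribosomal libraries under 0.75 M counts the Eif3h call was lost too (−0.306, adjusted p = 0.0648). Eif3a, the largest subunit, was lower in male total RNA at 308.7, 340.3 and 396.2 CPM in labelled knockouts and 375.5, 424.5 and 511.6 CPM in controls (−0.28, SE 0.09, adjusted p = 0.0333). That call was lost without any of labelled knockouts 12, 13 and 14 and controls 23, 25, 26 and 27, with changes no smaller than −0.23 (adjusted p = 0.0892). The change of Eif3a in female total RNA was of like size, −0.27 (SE 0.09, adjusted p = 0.0538), and did not pass. Eif3b to Eif3g, Eif3i and Eif3k to Eif3m passed in no comparison of the reported fits, with log2 fold changes from −0.38 to 0.29.

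Among the genes of scanning and subunit joining, Eif1 (ENSMUSG00000035530), which encodes the factor that guards start codon choice, was lower in female ribosomal RNA. It had 319.4, 350.1 and 526.5 CPM in labelled knockouts and 484.5, 662.1 and 718.5 CPM in controls, and 6 of 7 labelled knockouts lay below every control (log2 fold change −0.73, SE 0.13, adjusted p = 0.000199). The call was kept with each library left out in turn. In the other comparisons Eif1 gave −0.07 in male ribosomal, −0.23 in female total and 0.09 in male total RNA, and none passed. Eif5, Eif5b, Eif1a, Eif1b and Eif1ad passed in none of the reported fits. Eif5a and Eif5a2, whose products help the ribosome to form peptide bonds, and Eif6, whose product keeps the large subunit from joining early, passed in none of these either, with log2 fold changes of −0.19 to 0.38. In a fit of the 14 female total libraries alone Eif6 was called higher in labelled knockouts (0.31, adjusted p = 0.0377).

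Other transcripts differed between the same libraries. The 9 mitochondrially encoded mRNAs summed in female ribosomal RNA to 4976 to 23900 CPM in labelled knockouts and 1318 to 6211 CPM in controls, and 6 of 6 tested were higher, while 3 of the 9 were at 0 in all female labelled knockouts. There all 8 fibroblast and matrix markers were higher, with sums of 373.1 to 1148 CPM in labelled knockouts and 188.4 to 334.0 CPM in controls, as were all 6 endothelial markers tested, with sums of 88.0 to 352.3 CPM in labelled knockouts and 63.8 to 134.6 CPM in controls. Of the other lists, 3 of 4 tested smooth muscle and pericyte markers, 2 of 3 Schwann cell markers, 2 of 3 macrophage and leukocyte markers and 3 of 9 muscle fibre markers were higher there, with median log2 fold changes of 1.08, 1.25, 1.31 and 0.32. None of the 3 adipocyte markers tested was called. The defining markers of both cell types, Col1a1 and Pecam1 among them, were at 0 in no group. The share of reads outside genes was 6.53 to 12.5% in female labelled knockouts and 5 to 10% in female controls. In male ribosomal RNA none of the 6 mitochondrial, 8 matrix or 6 endothelial genes tested was called in labelled knockouts. In female ribosomal RNA 5.58% of all genes were called with the mitochondrial level as a covariate, against 16.8% without it. Of the 8 calls of members there, 2 were kept, those of Eif4g3 and Eif4a2. Of the others, Eif3j1 (−0.62, adjusted p = 0.0702), Eif4g1 (−0.28, adjusted p = 0.22) and Eif4ebp1 (−0.74, adjusted p = 0.149) kept folds near those above without passing, while Eif1 (−0.49, adjusted p = 0.0601), Eif2b1 (−0.48, adjusted p = 0.534) and Eif2b2 (−0.11, adjusted p = 0.845) had smaller ones. With the share of reads outside genes 5 of 8 were kept, and the lost ones were Eif2b1 (−0.44), Eif2b2 (−0.40) and Eif4g1 (−0.32, adjusted p = 0.0576). That fit called 8 members in all, each lower, against 8.53% of all genes. Newly called were Eif4e2 (−0.66, adjusted p = 0.0084), Eif2b5 (−0.565, adjusted p = 0.0421) and Eif3l (−0.42, adjusted p = 0.0472). Both measures differ between the groups, and their part in the changes was not tested apart from these fits.

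Without the ribosomal libraries under 0.75 M counts, 9 members were called in females, 7 lower and 2 higher. The higher ones were Eif3j2 (1.43) and Eif2b4 (0.49), and 7 of the 8 calls were kept. In males 3 were called lower, 2 of them among the 4. Matrix markers were higher in total RNA as well, 6 of 8 in females, with sums of 2836 to 4564 CPM in labelled knockouts and 1740 to 3203 CPM in controls, and 8 of 8 in males, with 3528 to 5133 CPM in labelled knockouts and 2209 to 3612 CPM in controls. Erythroid markers were higher in all 4 comparisons, 5 of 5 tested each time. The part of these transcripts in the changes of total RNA was not tested.

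Without the count filter, which tests more genes, the calls of Eif3h in male ribosomal (adjusted p = 0.0509), Eif2ak1 and Eif4ebp2 in female total (0.0636 and 0.106) and Eif3a and Eif2b2 in male total RNA (0.0604 and 0.0642) did not pass, at folds close to those above.

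Single libraries moved the male counts. In male ribosomal RNA the 4 calls became 1 without labelled knockout 12 or 14 and 2 without labelled knockout 10 or control 20, 26 or 27. Without ribosomal library 1 of male labelled knockouts, which held Kap, 5 were called. In male total RNA the 4 calls became 2 without labelled knockout 12 or 14 or control 25, 26 or 27, and 7 without labelled knockout 2. Without total library 6, which held Kap, 3 were called. In female total RNA the 7 calls became 4 without control 14. Male total RNA without controls 25, 26 and 27 together gave 2 calls, Eif4g3 and Eif4ebp1, of which Eif4g3 is among the 4.

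The knockout change was then compared between sexes and between RNA types, within the same fits. In ribosomal RNA 3 of 47 members differed between the sexes, against 3.43% of all genes called in either direction (1.54% higher and 1.89% lower). Eif1 (log2 difference of female minus male change −0.67, SE 0.19, adjusted p = 0.0382) fell further in females. Eif3j1 (−0.82, SE 0.20, adjusted p = 0.0163) fell in females alone, and Eif3h differed the other way (0.61, SE 0.18, adjusted p = 0.0493). Male labelled knockouts had 554.4 to 687.9 CPM of Eif1 and male controls 432.7 to 828.7 CPM, and the groups overlapped. For Eif3j1 the male labelled knockouts lay at 57.3, 70.9 and 102.1 CPM and the male controls at 42.9, 64.5 and 74.1 CPM, the opposite order to that in females. Eif3h had 355.6 to 596.3 CPM in female labelled knockouts and 304.5 to 440.0 CPM in female controls. The 3 differences were kept without the shallow libraries, and none was called with the mitochondrial level or the share of reads outside genes as a covariate (adjusted p from 0.0546 to 0.387). The share of all genes called was lower with these covariates too, at 0.25 and 1.04%, against 3.43%. In those fits the difference was −0.85 and −0.81 for Eif3j1 and 0.75 and 0.61 for Eif3h, close to or above the reported size, and −0.45 in both for Eif1. In total RNA no member differed between the sexes by edgeR or DESeq2, 6 of 49 had an unadjusted p under 0.05, and 0 of 12860 genes were called by edgeR.

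The change in ribosomal RNA exceeded that in total RNA for 2 of 49 members in females, where 3.46% of all genes were called in either direction (1.85% higher and 1.61% lower), and both were lower. Eif1 fell by 0.57 more on the log2 scale (SE 0.17, adjusted p = 0.0426) and Eif2b1 by 1.11 more (SE 0.32, adjusted p = 0.0397). With the mouse as a replicate block neither was called, although the differences were of like size, −0.58 for Eif1 (adjusted p = 0.0751) and −1.01 for Eif2b1 (adjusted p = 0.0958). In males no member was called by edgeR, with or without the block, or by DESeq2, 1 of 49 had an unadjusted p under 0.05, and 0.128% of all genes were called (0.0319% higher and 0.0956% lower).

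**Figure D3:**
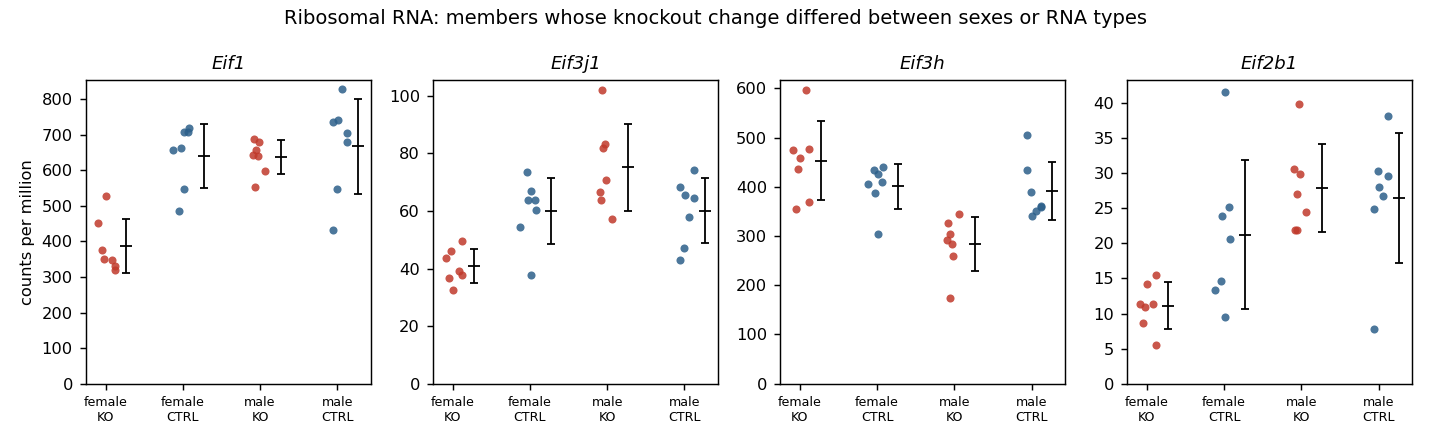
CPM in ribosomal RNA of Eif1, Eif3j1, Eif3h and Eif2b1, 7 libraries a group, labelled knockouts (KO, red) left of controls (CTRL, blue), with mean ± SD as black bars. Female labelled knockouts lie low for Eif1, with a median of 350.1 CPM against 662.1 CPM in female controls, while the 2 male groups overlap.

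Ribosomal RNA was compared with total RNA of the same mice, to see which initiation factor mRNAs are more or less represented on tagged fibre ribosomes than in the whole muscle. Levels here are CPM on the scale of the fit of all 56 libraries, over both sexes (14 libraries each). In labelled knockouts 31 of 49 members were higher in ribosomal RNA and 11 lower, against 31.9% of all genes higher and 44.0% lower (75.9% in all). In controls 32 were higher and 8 lower, against 35.2 and 43.1% of all genes (78.2% in all). Among the 49, Eif2ak2 and Eif2ak4 passed the filter only through total RNA and Eif3j2 only through ribosomal RNA. The filter favoured the directions of these members, so nothing is drawn from them. The direction of some members depends on the scaling: 13 in labelled knockouts and 8 in controls changed sign with library sizes alone, Eif3a, Eif3f, Eif3g, Eif3j1 and Eif2b2 in both. The median of all genes was −0.17 with TMM and −0.69 with library sizes alone in labelled knockouts, and −0.10 and −0.56 in controls, on the log2 scale. With library sizes alone the members split 17 higher to 20 lower in labelled knockouts and 24 higher to 17 lower in controls, and with DESeq2 28 to 15 and 31 to 15. Relative to the median of all genes, 36 of 49 members lay above it in labelled knockouts and 39 of 49 in controls under either scaling, by a median of 0.65 and 0.76 with TMM. The fold changes below are therefore given minus the median of all genes.

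On that measure the cap-binding genes Eif4e, Eif4e2 and Eif4e3 lay above the median in both genotypes, and so did Eif4b, Eif5a and Eif6. Eif5a2 was too low to be tested in this fit, with 0 to 1.385 CPM in ribosomal and 1.55 to 3.284 CPM in total RNA of labelled knockouts. In DESeq2 its log2 fold change, without subtracting the median, was −2.12 in labelled knockouts and −2.2 in controls. Eif4e had 197.1, 249.8 and 292.5 CPM in ribosomal and 129.8, 161.6 and 196.4 CPM in total RNA of labelled knockouts, without overlap, and 225.7, 267.8 and 410.1 CPM in ribosomal and 119.6, 153.0 and 180.3 CPM in total RNA of controls. It lay 0.84 above the median of all genes in labelled knockouts and 0.99 in controls. Eif4b lay 1.30 and 1.32 above it. The binding proteins of eIF4E showed less, with Eif4ebp1 at −0.01 in labelled knockouts and 0.07 in controls and Eif4ebp2 at −0.13 and −0.28.

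Within eIF2 and eIF2B the subunits differed. Eif2s2, the β subunit of eIF2, had 442.8, 637.5 and 913.7 CPM in ribosomal and 258.9, 297.8 and 357.5 CPM in total RNA of labelled knockouts, 1.26 above the median of all genes, and 1.42 above it in controls. Eif2s1, the α subunit of the same complex, lay at −0.17 and −0.06. Eif2b5 and Eif2b4 lay 1.65 and 1.55 above the median in labelled knockouts and 1.65 and 1.47 in controls, while Eif2b1 lay at −0.52 and −0.03. Subunits of 1 complex thus spanned more than 2 log2 units in labelled knockouts.

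Among the eIF3 genes Eif3c and Eif3h lay furthest above the median, apart from the near-copy Eif3j2, at 1.52 and 1.30 in labelled knockouts and 1.42 and 1.33 in controls. Eif3h had 377.4, 491.7 and 596.8 CPM in ribosomal and 182.6, 208.3 and 225.5 CPM in total RNA of controls, with no overlap. Eif3e, the subunit also known as Int6, lay at 0.00 and 0.11. Of the 14 eIF3 genes 12 were called higher and 1 lower in labelled knockouts and 11 higher and 0 lower in controls on the TMM scale. Eif3j2 is counted among the higher ones in both, but it was too low to be tested in total RNA alone. It entered this fit through ribosomal RNA, so nothing is drawn from its call. With library sizes alone Eif3a, Eif3f, Eif3g, Eif3j1 and Eif3l in labelled knockouts and Eif3a, Eif3e, Eif3f, Eif3g and Eif3j1 in controls changed sign.

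The kinase genes other than Eif2ak1 lay below the median. Of these, Eif2ak2 and Eif2ak4 were too low to be tested in ribosomal RNA alone and entered this fit through total RNA. The filter thus favoured their low place, and nothing is drawn from it. Eif2ak4 had 0 to 9.39 CPM in ribosomal and 5.51 to 12.2 CPM in total RNA of labelled knockouts, and 1.42 to 5.30 CPM in ribosomal and 7.54 to 12.8 CPM in total RNA of controls. It lay at −0.98 in labelled knockouts and −1.47 in controls, and the low counts in ribosomal RNA limit these values. Eif2ak3 lay at −0.37 and −0.81, Eif2ak2 at −0.48 and −0.81, and Eif2ak1 at 1.05 and 0.98. Eif4a1 lay at −0.91 and −0.80 and its paralog Eif4a2 at 0.70 and 0.92, and Eif4g3 lay at −0.06 and −0.18 while Eif4g1 lay at 0.59 and 0.61 and Eif4g2 at 0.61 and 0.64.

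**Figure D4:**
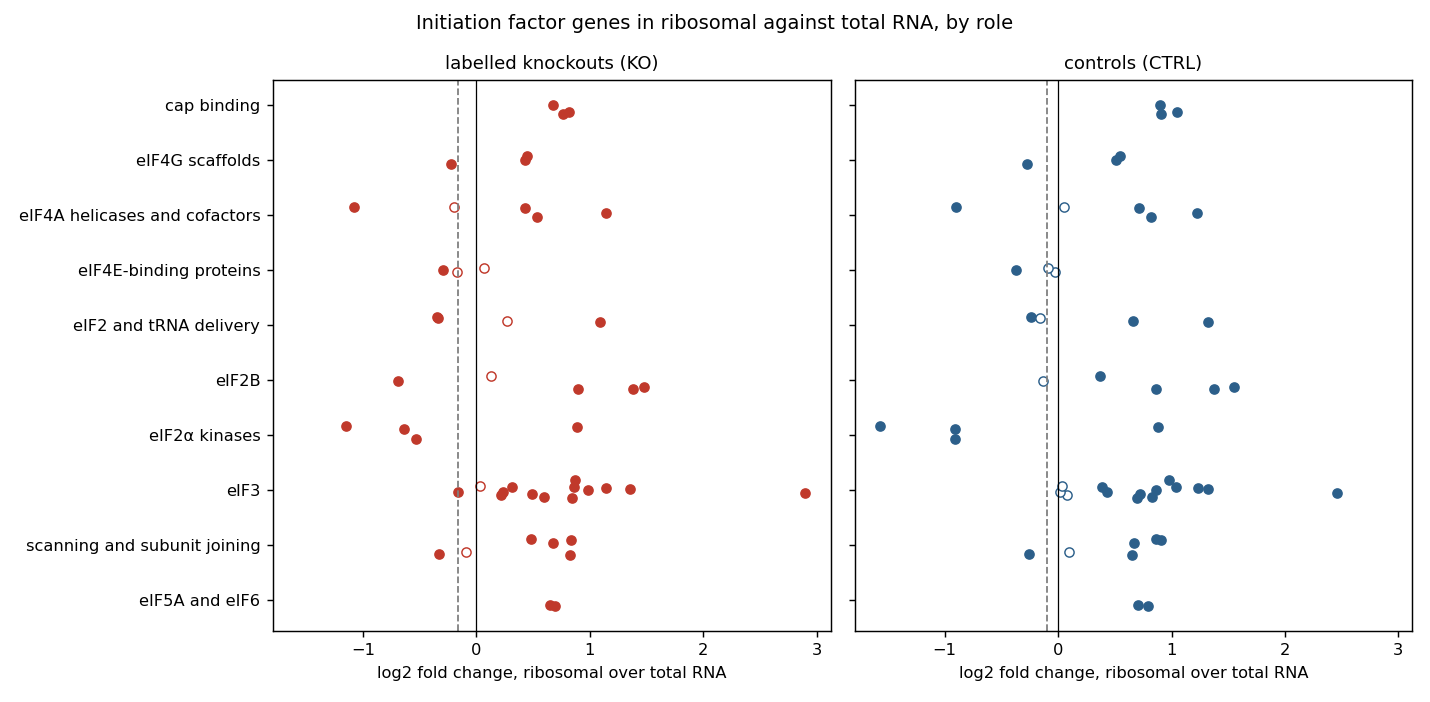
Log2 fold change of ribosomal over total RNA for the 49 tested members, by role, in labelled knockouts (KO, left) and controls (CTRL, right), on the TMM scale. Filled points passed an adjusted p under 0.05, and the dashed line is the median of all genes (−0.17 in labelled knockouts and −0.10 in controls). The 3 cap-binding genes lie right of 0 in both panels and 3 of the 4 eIF2α kinases lie left of it. Library sizes alone kept these directions, while 13 members in labelled knockouts and 8 in controls changed sign. Of the kinases, Eif2ak2 and Eif2ak4 passed the filter only through total RNA, and Eif3j2 of eIF3 passed only through ribosomal RNA.

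Male mice were compared with female mice of the same genotype. Ribosomal RNA of labelled knockouts held the most differences, with 9 of 47 members higher and 10 lower in males, against 16.5 and 17.2% of all genes (33.7% in all). Eif3c had 293.7, 319.4 and 380.9 CPM in males and 465.3, 753.6 and 960.5 CPM in females (log2 fold change −1.11, SE 0.22, adjusted p = 0.000432), and Eif2b5 94.8, 147.0 and 161.3 CPM in males and 175.6, 264.0 and 293.1 CPM in females (−0.75, SE 0.20, adjusted p = 0.00402). Males were above females for Eif2b1 (1.37, SE 0.28, adjusted p = 0.000447), Eif3j1 (0.84, SE 0.15, adjusted p = 8.25e-05) and Eif1 (0.72, SE 0.13, adjusted p = 0.000159), each without overlap. The other members higher in males were Eif4a3, Eif2b2, Eif4g2, Eif4g3, Eif3g and Eif3e (0.35 to 0.70), and the other lower ones were Eif3j2 (−2.03) and Eif2b4, Eif3d, Eif3h, Eif3b, Eif4e2, Eif5 and Eif3i (−0.75 to −0.27).

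Measures of library make-up differed between the same groups. The mitochondrially encoded sum was 1144 to 16900 CPM in male and 4976 to 23900 CPM in female labelled knockouts. With it as a covariate 2 members were called in place of 19, and with the share of reads outside genes 3. Of all genes, 2.47 and 5.98% were called in these fits, against 33.7% without a covariate. The folds of Eif2b1 (0.65), Eif1 (0.47) and Eif3c (−0.49) were smaller with the mitochondrial covariate, while that of Eif4g3 was 0.43 with and without it. The part of these measures in the sex differences was not tested further. Without the shallow libraries 19 were called, 17 of them the same. With library sizes alone, where the median of all genes was 0.38, the split became 20 higher and 2 lower, and 15 members changed sign, Eif3i and Eif5 among those called.

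The other sex comparisons held few calls. In total RNA of labelled knockouts 1 of 49 members, Eif4ebp2, was higher in males, at 145.1, 157.7 and 162.0 CPM in males and 113.3, 125.6 and 138.8 CPM in females (0.29, SE 0.07, adjusted p = 0.0149), against 1.84% of all genes higher and 1.02% lower (2.86% in all). In ribosomal RNA of controls 1 of 47, Eif4enif1, was higher in males (0.48, SE 0.15, adjusted p = 0.0488), against 4.25% of all genes higher and 3.37% lower (7.63% in all). That call was lost without the count filter (0.49, adjusted p = 0.124) and with upper-quartile factors (0.48, adjusted p = 0.0524), where the single member called was instead Eif3c (−0.62) and Eif4a2 (−0.42), each lower in males. In total RNA of controls Eif2b2 was higher (0.28) and Eif1, Eif2ak1 and Eif2s1 lower in males (−0.30, −0.30 and −0.31), against 4.75 and 3.95% of all genes (8.7% in all). Without female control 14 and male controls 25, 26 and 27 only Eif2ak1 of these 4 was called.

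The neighbouring pathways were described from lists of genes chosen by function. Their counts stand beside 16.8% of all genes called in female ribosomal, 8.96% in male ribosomal, 8.49% in female total and 14.2% in male total RNA. Of 29 genes of the mTORC1 pathway, which controls 4E-BP1, 3 of 26 tested were lower and 0 higher in female ribosomal RNA of labelled knockouts, 2 lower and 1 higher in male ribosomal RNA, 0 of 28 in female total RNA and 2 lower and 1 higher in male total RNA. Rps6kb1, which encodes the S6 kinase of that pathway, was lower in 3 of the 4. It had 51.0, 57.5 and 66.7 CPM in labelled knockouts and 66.3, 85.5 and 89.6 CPM in controls in female ribosomal RNA (−0.47, SE 0.12, adjusted p = 0.00706), and 54.6, 69.4 and 84.5 CPM in labelled knockouts and 87.7, 104.6 and 121.5 CPM in controls in male ribosomal RNA (−0.53, SE 0.11, adjusted p = 0.00135). Male total RNA gave −0.47 (SE 0.10, adjusted p = 0.00265). Mtor itself was called in none of the 4.

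Akt1s1, which encodes the mTORC1 inhibitor PRAS40, was lower in ribosomal RNA of both sexes (−0.57 in females and −0.54 in males, adjusted p = 0.0206 and 0.0294). Rheb, the GTPase that activates mTORC1, was lower in female ribosomal RNA (−0.48, SE 0.10, adjusted p = 0.000726). Rraga, a Rag GTPase gene, was higher in labelled knockouts in male ribosomal (0.50, adjusted p = 0.0197) and male total RNA (0.47, adjusted p = 0.00317).

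Of 27 target genes of the integrated stress response, the programme that eIF2α phosphorylation starts, 14 were tested in ribosomal and 19 in total RNA. In female ribosomal RNA 3 were higher and 1 lower in labelled knockouts, in male ribosomal RNA 0 higher and 2 lower, in female total RNA 3 higher and 2 lower and in male total RNA 3 higher and 1 lower. Of all genes 16.8, 8.96, 8.49 and 14.2% were called in these comparisons, in the same order. Chac1, a glutathione-degrading enzyme, was lower in female labelled knockouts, at 4.34, 10.9 and 21.9 CPM in labelled knockouts and 18.4, 43.9 and 53.0 CPM in controls in ribosomal RNA (−1.70, SE 0.40, adjusted p = 0.00352), and gave −1.58 (SE 0.29, adjusted p = 0.000661) in total RNA. Atf3, a stress-induced transcription factor, had 47.7, 132.5 and 769.9 CPM in labelled knockouts and 15.6, 28.3 and 91.8 CPM in controls in female ribosomal RNA (2.70, SE 0.79, adjusted p = 0.0157). In male ribosomal RNA it had 14.6, 20.97 and 52.2 CPM in labelled knockouts and 7.38, 34.2 and 1023 CPM in controls (−2.67, SE 0.77, adjusted p = 0.023). The male groups overlap, and the highest control lies far above the median of its group. Vldlr, a lipoprotein receptor, was lower in male ribosomal, female total and male total RNA, with log2 fold changes of −0.50, −0.51 and −0.53. Mthfd2, a mitochondrial folate enzyme, was higher in female ribosomal (0.69, adjusted p = 0.0221) and female total RNA (0.38, adjusted p = 0.0348).

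The genes of later steps were described in the same way. Of 10 elongation genes 1 was higher in female ribosomal RNA and 0 were called in male ribosomal RNA. In female total RNA 2 were lower, and in male total RNA 1 was higher and 2 lower. The shares of all genes called were 16.8, 8.96, 8.49 and 14.2% in the same order. Eef2k, the kinase that inhibits eEF2, was lower in total RNA of female (−0.33, SE 0.10, adjusted p = 0.0372) and male labelled knockouts (−0.47, SE 0.10, adjusted p = 0.00278). The higher ones were Eef1g in female ribosomal RNA (0.371, adjusted p = 0.0346) and Eef1a1 in male total RNA (0.455, adjusted p = 0.0154). Of 16 partners of the cap and the poly(A) tail, Paip2b, an inhibitor of poly(A)-binding protein, was lower (−0.71, SE 0.17, adjusted p = 0.00395) and Pabpc1, the poly(A)-binding protein gene, higher (0.65, SE 0.21, adjusted p = 0.0267) in female ribosomal RNA. Of these partners 1 was higher and 0 lower in male ribosomal and in female total RNA, and 1 higher and 2 lower in male total RNA. Of 7 genes of termination and ribosome recycling, Etf1, which encodes the release factor eRF1, was lower in male labelled knockouts in ribosomal (−0.41, adjusted p = 0.0229) and total RNA (−0.25, adjusted p = 0.028). Mcts2 was higher in female ribosomal RNA (0.533, adjusted p = 0.0421), and 0 of the 7 were called in female total RNA. These lists were described by their counts, and no test of a list was made.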

How the data were processed

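QuantSeq 3′ libraries (Lexogen) took 500 ng of RNA each, per the labels' protocols. Molecular tags were handled with UMI-tools and reads with STAR and HTSeq on GRCm39, alongside DESeq2 1.40.1 in R 4.3.0, per the submitters' processing notes. Versions of the first 3 and the strand setting are not given in the sources used here. The authors' deposited table holds whole counts per gene, with no normalization. The 5 summary lines of the counter stayed out of library sizes and tests (4.82 to 12.5% of reads lay outside genes in ribosomal and 9.54 to 23.4% in total libraries, and 17.1 to 23.8% and 14.0 to 18.8% aligned to several places), and 0 columns stayed unused. No 2 libraries were identical. Symbols, biotypes and chromosomes came from GENCODE and RefSeq tables of GRCm38, which matched 52029 identifiers and 97.56% of the counts.

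The test was that of edgeR 4.0.16 under R 4.3.3 (filterByExpr, TMM, glmQLFit and glmQLFTest) with Benjamini-Hochberg adjustment over all genes tested, 9098 in 28 ribosomal libraries, 12860 in 28 total libraries and 12546 in all 56. Each fit had group means only. CPM use TMM-scaled library sizes of the fit. The step was run on simulated counts with known changes. These had the same fixed spread for every gene, unlike real libraries, so nothing is drawn from them about the results here.

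The members, gene lists, motifs and tests were chosen with earlier results of these data known. Named were, per contrast, the 8 largest rises and 8 largest falls among called members, members chosen for their role, and up to 4 genes of lowest p per pathway list. Replicate numbers of a sex and genotype pair the ribosomal and the total library of 1 mouse, per the labels' numbers and a count of 14 mice a sex (another label gives 7). The mean correlation of paired deviations over 500 variable genes was 0.216 in female labelled knockouts, 0.0693 in female controls, 0.132 in male labelled knockouts and −0.211 in male controls, so the block rests on the labels. Replicates are mice, per the labels.

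Alternatives were RLE and upper-quartile factors, no filter beyond 1 count, DESeq2 1.42.0, library sizes without mitochondrial and haemoglobin genes, the 14 libraries alone, each library left out, and the mouse as a block. Chosen after seeing the data were library sizes alone, leaving out ribosomal libraries under 0.75 M counts or total libraries where over 19% of reads lay outside genes, and 2 covariates (log2 mitochondrial mRNA CPM plus 2, percent of reads outside genes). Protein sequences were not used here.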

Additional observations from a re-analysis of the deposited data

Results flagged for a closer look

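In 5 places the knockout change differed between groups by the test of the difference. The female minus male difference in ribosomal RNA was 0.608 for Eif3h, −0.823 for Eif3j1 and −0.665 for Eif1 on the log2 scale, and the ribosomal minus total difference in females was −1.11 for Eif2b1 and −0.573 for Eif1.

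Over the 14 members called lower in labelled knockouts and the 8 groups, 112 sets of 7 libraries were looked at for a lone high or low library by Dixon's test, and 12 were found. Chance alone gives about 5% of the sets. Eif4ebp1 and Eif4g1 were both high in ribosomal library 18 of female controls (63.9 CPM, next 40.1, and 511.3 CPM, next 400.5) and in total library 21 of female controls (122.7 CPM, next 65.8, and 580.4 CPM, next 484.9). In total library 26 of male controls, with 23.4% of reads outside genes, Eif4g1 was high (454.6 CPM, next 411.7) and Eif4a2 low (56.6 CPM, next 83.6). Eif2b5 stood at 473.7 CPM in ribosomal library 20 of male controls, next 261.0, in a library with 9.45% of reads outside genes. Eif2ak1 was low in ribosomal library 2 of male labelled knockouts (36.5 CPM, next 80.2), the library with 0.16 M counts, and Eif2b2 high in ribosomal library 2 of female labelled knockouts (106.3 CPM, next 82.1), with 12.5% of reads outside genes. Eif3h was low in ribosomal library 15 of female controls (304.5 CPM, next 387.1), Eif3j1 high in total library 23 of male controls (106.2 CPM, next 84.1), and Eif4ebp1 low in total library 10 of male labelled knockouts (32.1 CPM, next 40.1). The part of depth in these values was not tested.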

How the results depend on the processing

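The counts of called members moved by over 1.5 times as follows. Without the count filter, male ribosomal RNA of labelled knockouts gave 2 in place of 4, female total 4 in place of 7, male total 2 in place of 4, the ribosomal minus total change in females 1 in place of 2, male against female controls in total RNA 0 in place of 4 and labelled knockouts in total RNA 0 in place of 1. The share of all genes called was lower there too. It was 4.02, 2.82, 5.37, 1.28, 3.09 and 1.48% in the same order, against 8.96, 8.49, 14.2, 3.46, 8.7 and 2.86%. Library sizes alone gave 13 in female and 1 in male ribosomal RNA, 1 for the sex difference of the ribosomal change in place of 3, 1 for the ribosomal minus total change in females, and 0 and 2 for male against female controls in ribosomal and total RNA in place of 1 and 4. Of all genes 17.77, 4.73, 2.37, 3.22, 3.91 and 7.67% were called there in the same order, against 16.8, 8.96, 3.43, 3.46, 7.63 and 8.7%. The mitochondrial covariate gave 2 in female ribosomal RNA in place of 8, 0 for the sex difference and 2 for male against female labelled knockouts in place of 19, and the share of reads outside genes gave 0 and 3 for these last. The direction of Eif4e2 in that comparison, −0.58 as reported, reversed to 0.081 with the mitochondrial covariate and 0.039 with the share of reads outside genes. For the ribosomal minus total change in females DESeq2 gave 1 and RLE and upper-quartile factors 0. DESeq2 gave 2 for male against female controls in ribosomal RNA. Leaving out shallow ribosomal libraries gave 2 for male against female controls in ribosomal RNA, and leaving out total libraries where over 19% of reads lay outside genes gave 2 in male total RNA and 1 for male against female controls in total RNA. With upper-quartile factors the split in female ribosomal RNA was 1 higher and 7 lower. The causes were not tested.

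Leaving out each library in turn gave 6 to 9 calls in female ribosomal RNA, 1 to 6 in male ribosomal RNA, 4 to 8 in female total RNA and 2 to 7 in male total RNA.

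With the mouse as a replicate block the ribosomal minus total change in females gave 0 in place of 2, and ribosomal against total RNA kept all 42 calls in labelled knockouts and all 40 in controls. The block changed no other call. Knockouts and controls share no numbers within a sex. Depth limits Eif2b1, Eif4ebp1, Eif3j2 and Eif2ak3 in ribosomal RNA, where several libraries hold under 20 counts of each.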
